A study of Mus musculus with 12 samples.

Results

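The extracellular matrix genes described here were 35 genes that encode laminin chains, the nidogens and heparan sulfate proteoglycans that join laminins to other matrix, fibronectin, elastic fibre and microfibril proteins, small leucine-rich proteoglycans, lecticans with tenascins, and matricellular glycoproteins. They were chosen by name from a gene table of 53707 genes, and all 35 were found in it. RNA was measured by sequencing in retinal explants, which are whole retinas kept alive in culture, of wild-type C57BL/6J mice at 28 days of age (P28). The sclera and the retinal pigment epithelium had been removed. All explants were kept in Neurobasal-A medium with B27 and N2 supplements and were compared after 48 hours with 5 mM or 25 mM glucose. Each concentration had 3 biological replicates with 2 technical replicates each, which makes 12 libraries. The first technical replicates are called batch 1 here and the second batch 2. The sample titles only number the technical replicates and do not say how the first and second were made. The labels do not say how many retinas or animals made up a replicate, so the p-values below measure the spread between these samples.

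Basement membranes are thin matrix sheets built on laminin, a cross-shaped protein of an alpha, a beta and a gamma chain, and on a collagen network. Nidogens bridge the laminin and collagen networks, while perlecan (Hspg2) and agrin (Agrn) carry heparan sulfate chains that hold growth factors. In the retina such sheets form the inner limiting membrane at the vitreous and surround the vessels, and the lecticans with their hyaluronan and tenascin partners fill the space between neurons. Fibronectin, the small leucine-rich proteoglycans and Sparc are commonly made by vascular and connective tissue cells.

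The members took a small part of the RNA. Their share of all estimated counts was 0.179%, 0.329% and 0.295% in replicates 1, 2 and 3 at 5 mM, and 0.0730%, 0.104% and 0.155% at 25 mM glucose. The groups did not overlap, and Sparc alone made up between 26.3% and 35.4% of the member counts of a replicate. By library the share ran from 0.122% to 0.428% at 5 mM and from 0.0486% to 0.183% at 25 mM, so that single libraries of the groups overlapped. Library totals were between 14815285 and 36692484 estimated counts. Counts were summed over the technical replicates and are given as CPM, the counts relative to the library size after TMM scaling. In whole retina, fewer cells of a type and less RNA per cell cannot be told apart.

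**Figure D1:**
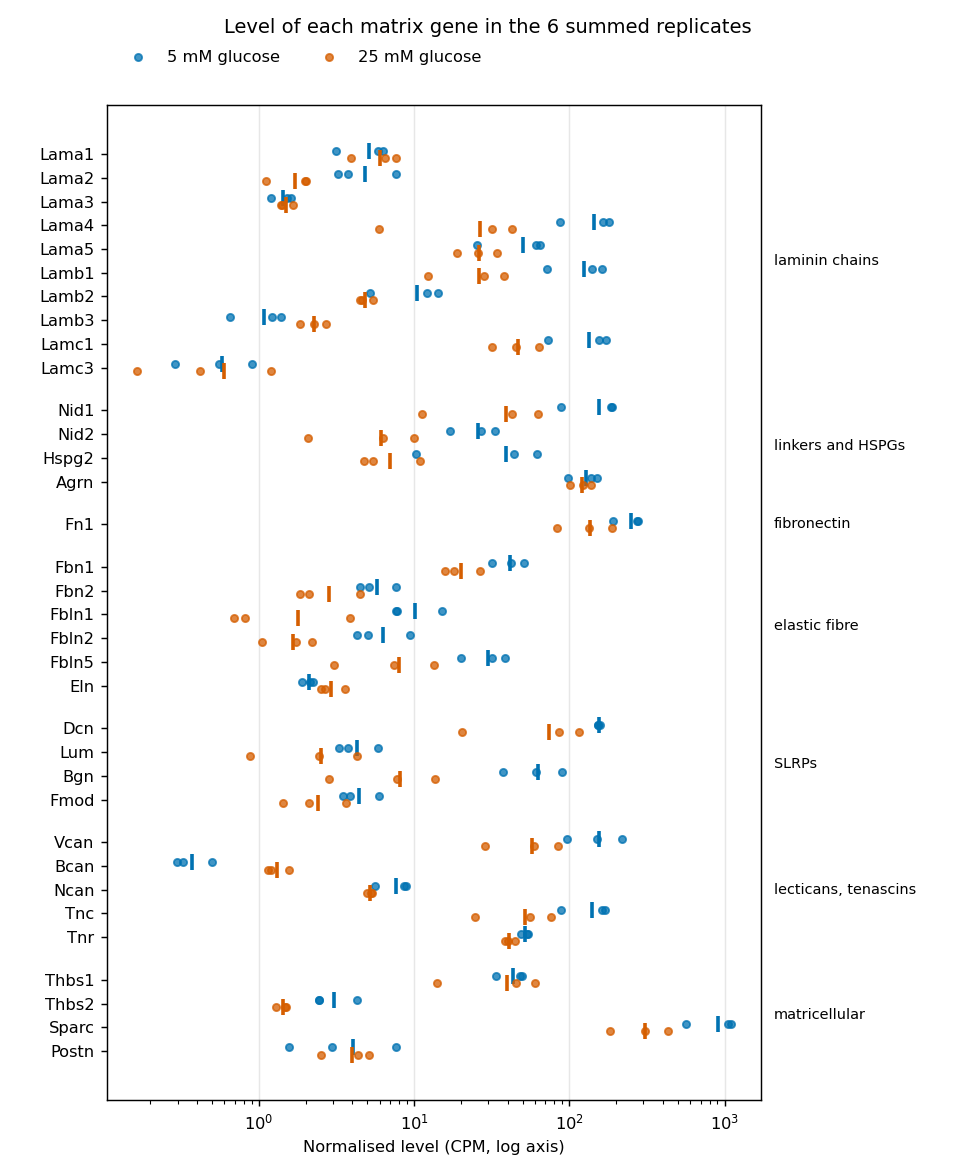
Level of 34 members in each summed replicate, in CPM on a log axis, with blue points for 5 mM and orange points for 25 mM glucose and an upright mark at each mean (n = 3); HSPGs are heparan sulfate proteoglycans, SLRPs small leucine-rich proteoglycans, and Acan, at or near 0, is left out. Sparc has the highest values in both groups, Lama4, Nid1 and Bgn lie apart between the groups, and Agrn overlaps.

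Most members had lower values at 25 mM glucose, few of them passed the test, and the fold changes within batch 1 were larger than those within batch 2, a difference that reached an FDR under 0.05 for no member in edgeR. Of the 35 members, 34 passed the filter on low counts, Acan being the exception. The quasi-likelihood test of edgeR, with Benjamini-Hochberg adjustment over all 21061 genes tested (FDR), called 2 members lower, Lamb1 and Bgn, and 1 higher, Bcan, at an FDR under 0.05. These are 5.88% and 2.94% of the members tested, where 0.513% of all genes were called lower and 1.47% higher. At an FDR under 0.01 with a fold change over 2, edgeR called 0 members and 0.0% of all genes. By that rule DESeq2 called 16 members and 6.4% of all genes, and limma-voom 0 members and 0 genes. At an FDR under 0.05 DESeq2 called 18 members lower and 1 higher, beside 9.11% and 5.5% of all genes. At an unadjusted p under 0.05, 20 members were lower and 2 were higher, or 58.8% and 5.88%, beside 15.5% and 13.2% of all genes. The median log2 fold change was -1.06 over the 34 members and -0.01 over all genes tested, and 28 of 34 values were below 0 (82.4%, beside 50.7% of all genes). Of the members, 19 had log2 fold changes under -1 (55.9%, beside 9.27% of all genes).

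In 19 of 34 members the 3 values at 25 mM all lay under the 3 values at 5 mM (55.9%, beside 15.8% of all genes), and in 3 they all lay above (8.82%, beside 16.0%). The remaining 12 members overlapped. An exact permutation test of a single gene with 3 replicates against 3 cannot go below p = 0.1, which is the value of each member whose groups did not overlap. When the 12 libraries were taken one by one, the groups lay apart in 3 members, lower in Bgn and Fbln2 and higher in Bcan, beside 1.36% of all genes lower and 3.25% higher.

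**Figure D2:**
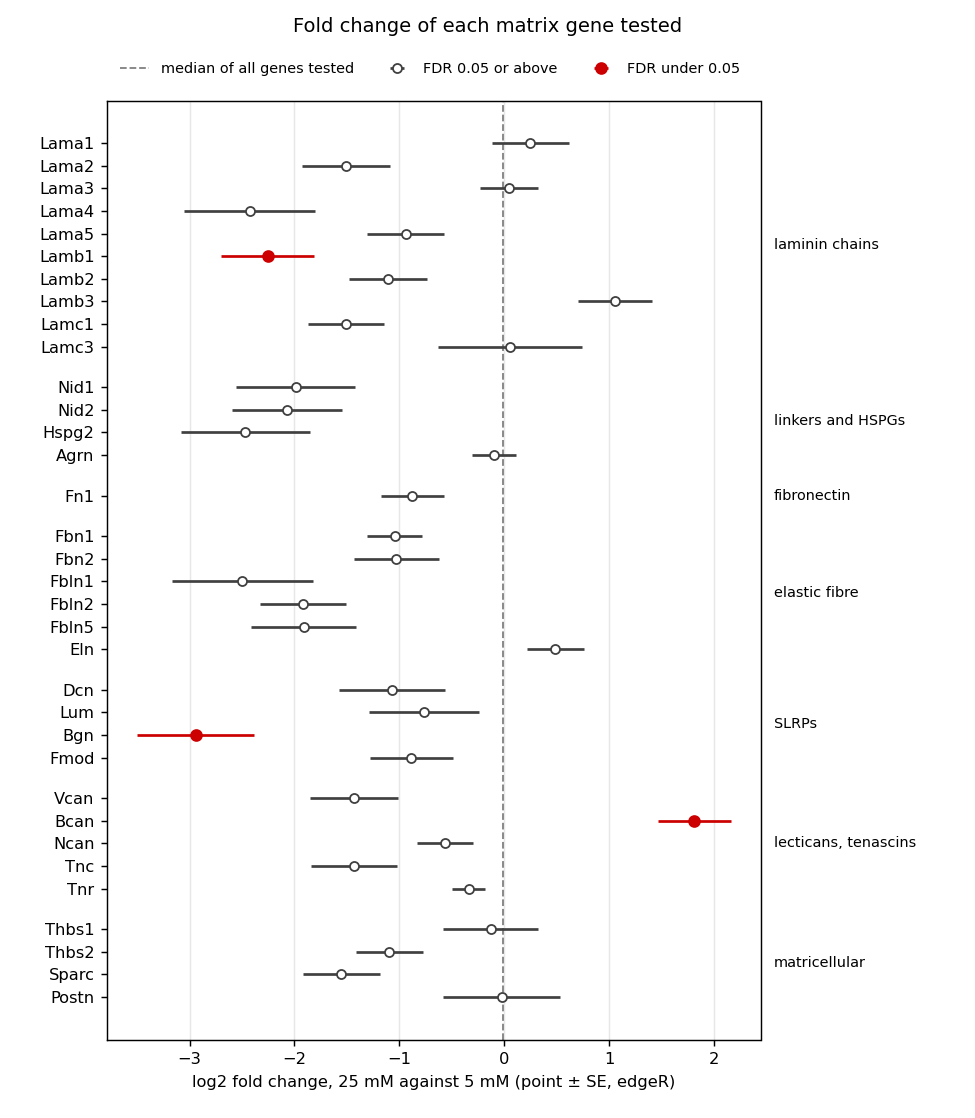
log2 fold change of the 34 members tested, 25 mM against 5 mM glucose (edgeR, point with SE, 3 summed replicates per group), with filled red points for an FDR under 0.05 and a dashed line at the median of all genes. Lamb1 and Bgn lie to the left and Bcan to the right as the called members, and 28 of the 34 points lie below 0.

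Within batch 1 the median log2 fold change of the members was -1.53 and edgeR called 19 members lower and 2 higher, where it called 10.1% of all genes lower and 7.16% higher. Within batch 2 the median was -0.47, and 3 members reached an unadjusted p under 0.05, a threshold at which the share of all genes was not computed there. There edgeR called 0 members and 0 of 18811 genes in either direction. Batch 1 and batch 2 are the first and second technical replicates of the same biological replicates, with 3 libraries per concentration in each. At 5 mM the second library lay below the first in 24, 28 and 24 of 34 members in replicates 1, 2 and 3. At 25 mM it lay below the first in 29 members of replicate 1 and above it in 25 and 23 members of replicates 2 and 3. The median difference between the libraries of a replicate, second less first, was -0.57, -0.96 and -0.27 in log2 at 5 mM and -0.57, 1.16 and 0.55 at 25 mM, whereas over all genes it stayed between -0.07 and 0.02. A test of the difference between batches, with each biological replicate as a block, found 0 of 34 members and 0 of 18725 genes at an FDR under 0.05 in edgeR. At an unadjusted p under 0.05 it found 16 members (47.1%), beside 3056 genes (16.3%), and the lowest member FDR was 0.17 for Bgn. The cause of the difference between technical replicates was not tested.

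**Figure D3:**
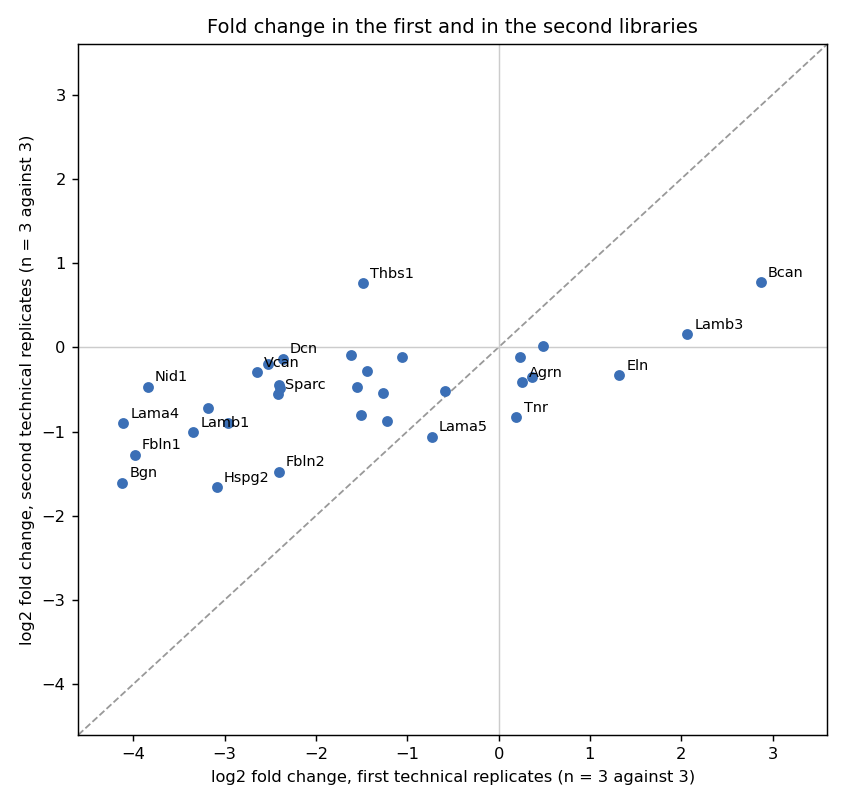
log2 fold change of 33 members, 25 mM against 5 mM glucose, in the first technical replicates (x axis) and the second (y axis), with 3 libraries against 3 in each and a dashed line where both are equal. Most points lie to the left of 0 on the x axis and nearer to 0 on the y axis; Thbs1, Eln, Tnr, Agrn, Postn and Lama3 lie on opposite sides of 0 on the axes, and Lamc3 was not tested in the second libraries.

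Lamb1, a beta chain of the common laminins, fell at 25 mM glucose. Its gene lies on chromosome 12 between 31265234 and 31329644 on the plus strand (GRCm38). Its levels were 71.4, 163 and 140 CPM at 5 mM and 12.4, 28.1 and 38.0 CPM at 25 mM. The groups of summed replicates lay apart, while single libraries overlapped, from 35.02 to 235 CPM at 5 mM and from 6.17 to 45.2 CPM at 25 mM. The log2 fold change was -2.25 ± 0.44 (SE, n = 3 per group) with an FDR of 0.048 in edgeR, and it was -3.34 in batch 1 and -1.01 in batch 2. The deposited gene value of Lamb1 was 1.71 to 3.68 times the one rebuilt from its transcripts. From transcript counts summed per gene the log2 fold change was -2.26 with an FDR of 0.11, and from plain library totals it was -2.22 with an FDR of 0.052.

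Bgn encodes biglycan, a small leucine-rich proteoglycan that binds collagen and growth factors, and it also fell. Its gene lies on chromosome X between 73483602 and 73495933 on the plus strand. Its levels were 37.3, 89.6 and 60.7 CPM at 5 mM and 2.85, 7.77 and 13.7 CPM at 25 mM, and the groups did not overlap even by library. The log2 fold change was -2.94 ± 0.56 (SE, n = 3 per group) with an FDR of 0.046, the lowest value of any member, at -4.12 in batch 1 and -1.61 in batch 2. From transcript counts summed per gene it was -3.15 with an FDR of 0.050, just past the threshold.

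Bcan, the lectican brevican of the neuronal matrix, was the called member that rose. It was expressed at a very low level, with 55 estimated counts over the 3 replicates at 5 mM and 163 at 25 mM. Its levels were 0.325, 0.498 and 0.298 CPM at 5 mM and 1.58, 1.20 and 1.15 CPM at 25 mM, with no overlap. The log2 fold change was 1.81 ± 0.35 (SE, n = 3 per group) with an FDR of 0.046, at 2.87 in batch 1 and 0.77 in batch 2. The higher value at 25 mM did not rest on the coding transcript Bcan-201, which had 16.3, 16.6 and 18.3 counts at 5 mM and 9.42, 5.95 and 11.7 at 25 mM. The retained-intron transcript Bcan-204, of 568 bases, had 0.0386, 1.46 and 0 counts at 5 mM and 9.00, 7.75 and 9.98 at 25 mM. When transcript counts were summed per gene without regard to length, the log2 fold change of Bcan was 0.55 with an FDR of 0.26.

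The 3 calls lay close to the threshold and did not hold in every fit that left out 1 replicate. Without replicate 2 at 5 mM, without replicate 3 at 5 mM, without replicate 1 at 25 mM or without replicate 2 at 25 mM, edgeR called 0 members and 0 genes, and 19, 20, 19 and 18 members had an unadjusted p under 0.05. The log2 fold changes then lay between -2.30 and -1.91 for Lamb1, between -2.98 and -2.53 for Bgn and between 1.66 and 2.05 for Bcan. Without replicate 1 at 5 mM, 19 members were called lower and 2 higher, beside 14.9% and 11.7% of all genes. Without replicate 3 at 25 mM, 4 were called lower and 0 higher, beside 0.946% and 1.32% of all genes, and Bcan had a log2 fold change of 1.89 with an FDR of 0.052. With replicate 2 at 25 mM taken from its second library only, edgeR called 0 members and 0 genes. Then 21 members had an unadjusted p under 0.05, and the FDR was 0.13 for each of Lamb1, Bgn and Bcan. For the fits in this paragraph the share of all genes at an unadjusted p under 0.05 was not computed. The member counts at that p therefore cannot be set against it.

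Promoters are shown for the 3 called members and for the pair of heparan sulfate proteoglycans, Hspg2 and Agrn, whose fold changes by gene value differed widely. They are RefSeq sequences of build GRCm38.p6, from 250 bases before to 50 bases after the start, written 5′ to 3′ along the gene, with capitals for the GC box GGGCGG on either strand, overlapping matches joined. They lie at chr12:31265043-31265342, plus strand (Lamb1), chrX:73483351-73483650, plus strand (Bgn), chr3:88000307-88000606, minus strand (Bcan), chr4:137468553-137468852, plus strand (Hspg2) and chr4:156197439-156197738, minus strand (Agrn).
Lamb1: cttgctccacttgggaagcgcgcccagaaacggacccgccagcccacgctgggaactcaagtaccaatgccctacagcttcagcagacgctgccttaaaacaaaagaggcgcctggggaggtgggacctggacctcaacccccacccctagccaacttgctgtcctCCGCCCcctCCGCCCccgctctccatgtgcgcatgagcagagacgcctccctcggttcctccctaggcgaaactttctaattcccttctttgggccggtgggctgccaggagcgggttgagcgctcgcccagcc
Bgn: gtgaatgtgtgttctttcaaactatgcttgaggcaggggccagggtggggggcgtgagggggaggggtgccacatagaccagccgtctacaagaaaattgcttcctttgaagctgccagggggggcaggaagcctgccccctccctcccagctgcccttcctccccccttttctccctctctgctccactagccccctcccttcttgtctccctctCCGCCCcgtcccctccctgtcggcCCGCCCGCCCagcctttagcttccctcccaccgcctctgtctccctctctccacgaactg
Bcan: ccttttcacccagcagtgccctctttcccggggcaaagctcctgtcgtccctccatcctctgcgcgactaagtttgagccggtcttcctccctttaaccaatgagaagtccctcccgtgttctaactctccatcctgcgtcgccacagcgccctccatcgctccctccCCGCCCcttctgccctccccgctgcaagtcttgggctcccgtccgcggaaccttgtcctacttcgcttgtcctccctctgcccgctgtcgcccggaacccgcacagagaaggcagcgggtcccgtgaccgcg
Hspg2: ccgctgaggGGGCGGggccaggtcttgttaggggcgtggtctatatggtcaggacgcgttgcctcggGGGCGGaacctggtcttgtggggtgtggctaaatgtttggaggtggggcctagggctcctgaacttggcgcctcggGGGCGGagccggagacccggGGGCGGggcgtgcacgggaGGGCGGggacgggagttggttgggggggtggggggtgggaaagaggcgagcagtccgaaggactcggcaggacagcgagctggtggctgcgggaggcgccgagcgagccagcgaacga
Agrn: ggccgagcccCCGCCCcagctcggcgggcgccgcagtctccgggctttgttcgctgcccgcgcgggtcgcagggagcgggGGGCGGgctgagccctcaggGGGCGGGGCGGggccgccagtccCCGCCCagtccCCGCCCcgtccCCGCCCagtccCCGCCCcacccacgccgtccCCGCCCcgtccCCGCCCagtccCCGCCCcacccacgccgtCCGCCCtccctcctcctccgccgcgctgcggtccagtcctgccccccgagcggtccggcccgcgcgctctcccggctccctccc
The Agrn window had a GC content of 83.3% and 12 GC boxes, the Hspg2 window 70.3% and 5. Lamb1, Bgn and Bcan had 2, 3 and 1. Promoters were found for 23 of the 35 members, with 29 windows in all. A GC box was present in 18 of the 29 windows (62.1%), beside 35.7% of all 32851 windows of that length, and the median GC content was 59.3% beside 52.7%. The letters TATAAA occurred on either strand in 5 of 29 windows (17.2%, beside 13.6%), and TGANTCA in 0 of 29 (0.0%, beside 7.81%).

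Among the 10 laminin chains, 1 was called, and 6 others had an unadjusted p under 0.05, of which 5 were lower and 1 was higher. Lama4, the alpha chain typical of blood vessels, had 87.5, 180 and 165 CPM at 5 mM and 5.94, 31.7 and 42.8 CPM at 25 mM. Its log2 fold change was -2.43 ± 0.63 (SE), with an FDR of 0.071, and it was -4.11 in batch 1 and -0.90 in batch 2. The groups did not overlap as summed replicates, but they did by library, from 33.9 to 266 CPM at 5 mM and from 3.39 to 57.2 CPM at 25 mM. Lamc1, the gamma chain shared by most laminins, had 73.4, 173 and 156 CPM at 5 mM and 31.9, 45.1 and 64.1 CPM at 25 mM, at -1.51 ± 0.36 with an FDR of 0.064. Lama5, the other alpha chain of vessels, overlapped between groups with 25.6, 61.4 and 64.4 CPM against 25.7, 19.0 and 34.3 CPM, at -0.94 ± 0.37 with an FDR of 0.14.

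The remaining chains were rarer. Lama2, best known from muscle and nerve, had 3.22, 3.73 and 7.64 CPM at 5 mM and 1.11, 2.03 and 1.99 CPM at 25 mM, with an FDR of 0.077. Lamb2, a beta chain of the retina and the synapse, had 5.24, 12.04 and 14.2 CPM against 4.50, 4.65 and 5.43 CPM, with groups that overlapped and an FDR of 0.11. Lamb3, an epithelial beta chain, lay higher at 25 mM, with 1.39, 0.656 and 1.21 CPM against 2.71, 1.83 and 2.26 CPM, without overlap and with an FDR of 0.11. Lama1, the chain of early basement membranes and the inner limiting membrane, Lama3, an epithelial chain, and Lamc3 overlapped between groups, with log2 fold changes of 0.25, 0.05 and 0.05. Lamc3 stayed at or under 1.20 CPM in every replicate. Over the 10 chains the median log2 fold change was -1.02, at -1.12 in batch 1 and -0.48 in batch 2.

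The make-up of the laminin chains was compared as shares of the CPM per kilobase of transcript within each kind of chain, so that a change common to all chains would leave it as it was. Lama4 made up 81.3%, 80.9% and 77.9% of the alpha chains at 5 mM and 21.8%, 66.4% and 62.2% at 25 mM. Lama5 made up 13.3%, 15.4% and 17.0% at 5 mM and 52.7%, 22.2% and 27.8% at 25 mM. Replicate 1 at 25 mM stood furthest from the 5 mM replicates in both. Among the beta chains Lamb1 held 89.5 ± 1.83% at 5 mM and 67.8 ± 13.8% at 25 mM (SD, n = 3), and Lamb3 2.26 ± 1.66% and 16.5 ± 9.13%. The beta shares are uncertain, since the gene value was 1.71 to 3.68 times the one rebuilt from transcripts for Lamb1 and 1.22 to 1.40 times for Lamb3. Lamb3 had only 163 summed counts at 5 mM and 285 at 25 mM. A noncoding transcript of 258 bases held 33.1% of its transcript counts, and the length used for scaling was 2335 bases. Of the sum of Lamc1 and Lamc3, the gamma chains among the members, Lamc1 made up 97.6% or more in every replicate. For Lama1, Lama3, Lama4, Lama5 and all 3 beta chains the groups did not overlap, and each gave an exact two-sided permutation p of 0.1, the smallest possible, and an adjusted p of 0.16 over the 14 shares compared. The share of Lama4 was lower by 55.2 percentage points in batch 1 and by 11.7 in batch 2.

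**Figure D4:**
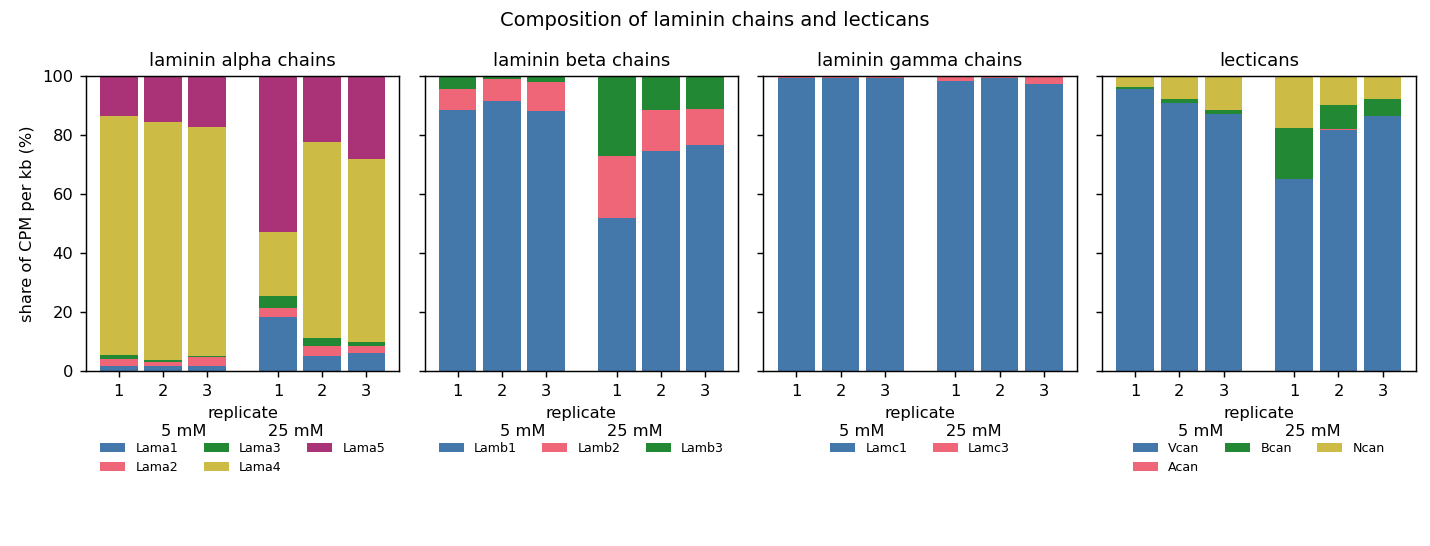
Share of each member chain among the laminin alpha, beta and gamma chains of the member list, and of each lectican among the 4 lecticans, in percent of CPM per kilobase, as stacked bars for the 3 replicates at 5 mM and the 3 at 25 mM glucose. Lama4 takes 77.9% to 81.3% of the alpha chains at 5 mM and 21.8% to 66.4% at 25 mM, and Vcan has the largest share of the lecticans in all 6.

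The nidogens and perlecan had lower gene values at 25 mM, whereas the gene value of agrin, held mostly by retained-intron transcripts, differed little. Nid1, the main link between laminin and collagen IV, had 88.0, 186 and 189 CPM at 5 mM and 11.2, 42.8 and 62.7 CPM at 25 mM, without overlap, at -1.99 ± 0.57 with an FDR of 0.080. Nid2, its relative, had 17.0, 33.5 and 27.0 CPM against 2.06, 6.32 and 10.0 CPM, without overlap, at -2.07 ± 0.53 with an FDR of 0.070. Hspg2 had 10.4, 62.2 and 44.2 CPM against 5.40, 4.79 and 10.9 CPM, at -2.47 ± 0.62 with an FDR of 0.068. Here replicate 1 at 5 mM lay under replicate 3 at 25 mM, so the groups overlapped, and the deposited gene value was 0.754 to 2.56 times the one rebuilt from transcripts. Agrn had 98.0, 151 and 137 CPM against 137, 101 and 122 CPM, at -0.10 ± 0.21 with an FDR of 0.77. By CPM per kilobase Agrn ranked 8 among the members at 5 mM and 4 at 25 mM. Of the transcript counts of Agrn, retained-intron transcripts held the larger part, with 38.5% on Agrn-207 and 31.0% on Agrn-205. The protein-coding share was 19.2%, 46.8% and 39.6% at 5 mM and 19.7%, 16.8% and 21.5% at 25 mM, which overlapped. The largest coding transcript, Agrn-206, had 714, 2731 and 2138 unscaled counts at 5 mM and 829, 410 and 858 at 25 mM. The small fold change of the gene is thus not a measure of its coding RNA.

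Fn1 encodes fibronectin, which cells assemble into fibrils through integrins. Its levels were 192, 277 and 275 CPM at 5 mM and 83.9, 133 and 188 CPM at 25 mM, groups that lay just apart. The log2 fold change was -0.88 ± 0.30 with an FDR of 0.11, and it was -1.44 in batch 1 and -0.28 in batch 2. Fibronectin is spliced at the extra domains EDA and EDB, exons at chr1:71603660-71603929 and chr1:71613763-71614035 in the annotation of GRCm38. By length-scaled transcript counts, coding transcripts with EDA made up 95.5%, 82.4% and 89.9% at 5 mM and 87.4%, 92.7% and 74.0% at 25 mM. Those with EDB made up 88.7%, 64.5% and 72.9% against 81.4%, 83.7% and 70.1%. Both overlapped between the groups, with exact permutation p of 0.60 and 0.80.

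The elastic fibre and microfibril genes contained no called member, and 4 of the 6 had 25 mM values entirely under those at 5 mM. Fbln1, fibulin 1 of the vessel wall and basement membranes, had 7.73, 15.2 and 7.68 CPM at 5 mM and 0.696, 0.821 and 3.87 CPM at 25 mM, at -2.50 ± 0.67 with an FDR of 0.074. Fbln2, which binds fibronectin and elastic fibres, had 5.08, 9.44 and 4.30 CPM against 1.04, 1.72 and 2.19 CPM, at -1.92 ± 0.41 with an FDR of 0.055. The Fbln2 groups also lay apart by library, from 3.94 to 11.5 CPM and from 0.0966 to 3.01 CPM. Fbln5, needed to assemble elastic fibres, had 20.1, 38.4 and 31.8 CPM against 3.06, 7.42 and 13.5 CPM, with an FDR of 0.071. Fbn1, the main microfibril protein and a store of latent TGF-beta, had 51.0, 42.3 and 31.6 CPM against 15.9, 18.1 and 26.6 CPM, at -1.05 ± 0.27 with an FDR of 0.070. Fbn2, a fibrillin of developing tissue, overlapped between groups, with a mean of 5.75 ± 1.66 CPM against 2.81 ± 1.47 CPM (SD, n = 3). The gene value of Eln, elastin, lay higher at 25 mM without overlap, with 2.15, 1.90 and 2.23 CPM against 3.62, 2.68 and 2.51 CPM, and an FDR of 0.27. Coding transcripts held only 16.8%, 51.4% and 5.40% of its transcript counts at 5 mM and 28.3%, 18.6% and 22.1% at 25 mM. For Eln the sign differed between batches, 1.32 in batch 1 and -0.33 in batch 2.

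Besides Bgn, the small leucine-rich proteoglycans were not called. Dcn, decorin, which coats collagen fibrils, had 154, 153 and 157 CPM at 5 mM and 20.5, 85.5 and 115 CPM at 25 mM. The 5 mM replicates were nearly equal only as sums of 2 libraries, while those at 25 mM spread widely. Single libraries overlapped, from 74.5 to 207 CPM at 5 mM and from 9.18 to 147 CPM at 25 mM. The log2 fold change was -1.07 ± 0.50 with an FDR of 0.20, and it was -2.36 in batch 1 and -0.14 in batch 2. By CPM per kilobase Dcn was the second most abundant member at both concentrations, at 86.5 and 41.2. Lum, lumican of the cornea and sclera, and Fmod, fibromodulin, both binders of collagen fibrils, overlapped between groups. Lum had 4.30 ± 1.38 CPM against 2.53 ± 1.70 CPM, and Fmod 4.44 ± 1.34 CPM against 2.40 ± 1.13 CPM (SD, n = 3).

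Of the lecticans and tenascins, Bcan was called, and Vcan and Tnc had the larger levels. Vcan, versican, a hyaluronan-binding proteoglycan of vessels and loose matrix, had 217, 151 and 96.3 CPM at 5 mM and 28.5, 59.0 and 84.7 CPM at 25 mM. It did not overlap, at -1.43 ± 0.42 with an FDR of 0.084, and it was -2.65 in batch 1 and -0.29 in batch 2. Versican forms differ by 2 large exons that carry glycosaminoglycan chains. The form with both exons (V0) made up 46.5%, 40.2% and 37.2% at 5 mM and 47.2%, 41.8% and 41.0% at 25 mM. The form with the beta exon alone (V1) made up 53.3%, 57.3% and 60.2% against 51.2%, 56.7% and 57.6%. Both overlapped between the groups, with exact permutation p of 0.50 and 0.60.

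Tnc, tenascin-C of remodelling matrix and glia, had 88.0, 163 and 169 CPM at 5 mM and 24.5, 55.6 and 75.8 CPM at 25 mM, without overlap, at -1.43 ± 0.41 with an FDR of 0.081. Tnr, tenascin-R of the perineuronal matrix, had 54.0, 48.9 and 53.1 CPM against 44.9, 38.4 and 40.1 CPM. The Tnr groups lay apart by a small step, at -0.34 ± 0.16 with an FDR of 0.20, and by batch the value was 0.19 and -0.83. Ncan, neurocan of neural tissue, had 5.58, 8.85 and 8.68 CPM against 5.36, 4.95 and 5.29 CPM, just without overlap and with an FDR of 0.20. Acan, aggrecan, held 6 estimated counts over the 3 replicates of each concentration and was not tested. Vcan made up 91.3 ± 4.21% of the lecticans at 5 mM and 77.8 ± 11.2% at 25 mM, and Bcan 1.16 ± 0.40% and 10.4 ± 6.11% (SD, n = 3), each with an exact permutation p of 0.1 and an adjusted p of 0.16. Without length scaling the difference in the share of Bcan was 2.27 percentage points in place of 9.21.

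Sparc, which encodes a calcium-binding glycoprotein that takes part in the assembly of collagen IV, was the most abundant member. Its levels were 561, 1097 and 1051 CPM at 5 mM and 182, 308 and 432 CPM at 25 mM, and the groups did not overlap. The log2 fold change was -1.55 ± 0.37 with an FDR of 0.063, and it was -2.41 in batch 1 and -0.56 in batch 2. Thbs2, thrombospondin 2, an inhibitor of vessel growth, had 2.46, 4.28 and 2.43 CPM against 1.30, 1.51 and 1.47 CPM, with an FDR of 0.083. Thbs1, its relative and an activator of latent TGF-beta, overlapped with 33.6, 47.9 and 49.2 CPM against 14.0, 45.2 and 60.4 CPM, and its sign differed between batches at -1.49 and 0.76. Postn, periostin of connective tissue, overlapped too, with 4.07 ± 3.19 CPM against 4.00 ± 1.35 CPM (SD, n = 3).

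Coding and noncoding transcripts of the same gene could be compared in 30 members with a mean of at least 100 transcript counts per replicate. In 19 of them protein-coding transcripts held 90% or more of the counts in every replicate. The mean coding share was lower at 25 mM in 20 of 30 members, with a median difference of -0.89 percentage points. It lay entirely lower at 25 mM in 4, Lama2, Lamc1, Nid2 and Fbn2, and entirely higher in 0. Coding shares were computed for the members only, so these counts cannot be set against a share over all genes. Lama2 had 86.9%, 97.8% and 93.6% coding counts at 5 mM and 74.9%, 79.1% and 81.3% at 25 mM. The exact permutation p was 0.1 for each of the 4 and the lowest adjusted p over the 30 was 0.67, so no difference in coding share passed the test. Within batch 2, 1 of 21 members lay entirely lower, within batch 1 4 of 25.

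Receptors and partners of these proteins, in lists written with earlier results of these data known, were examined in the same fit. Beside the counts below, edgeR called 0.513% of all genes lower and 1.47% higher, and DESeq2 9.11% and 5.5%. At an unadjusted p under 0.05 in edgeR, 15.5% of all genes were lower and 13.2% higher. Of 26 matrix receptors, 25 were tested and 0 were called by edgeR, with 13 lower and 3 higher at an unadjusted p under 0.05 and a median of -0.55, while DESeq2 called 8 lower and 1 higher. The most abundant per kilobase were Itgb1, the beta chain of the laminin and fibronectin receptors, at -1.04 ± 0.30 with an FDR of 0.080, Cd44, the hyaluronan receptor, at -0.01 ± 0.22 with an FDR of 0.99, and the syndecan Sdc4 at -0.55 ± 0.19 with an FDR of 0.12. Of 25 partners and assembly genes, 24 were tested and 1 was called. It was Egflam, pikachurin, a laminin-G protein of the photoreceptor synapse that binds dystroglycan, and it rose from 16.8 to 44.6 mean CPM, at 1.41 ± 0.22 with an FDR of 0.033. The median of that list was -0.95, with 10 lower and 2 higher at an unadjusted p under 0.05, and DESeq2 called 8 lower and 2 higher. The TGF-beta pathway list held 14 symbols for 13 genes, 1 gene being listed under both its old and its new symbol. All 13 were found and tested, and 0 were called by edgeR. There were 7 lower and 0 higher at an unadjusted p under 0.05, with a median of -0.97, while DESeq2 called 4 lower. Among the most abundant per kilobase were the ligand Tgfb2 at -0.30 and the signal transducer Smad2 at -0.13, with FDRs of 0.22 and 0.64.

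Summed levels of endothelial, fibroblast and microglia markers lay lower at 25 mM, as many members did, while those of pericyte markers overlapped. By single library each of these sums overlapped. The lowest 5 mM and highest 25 mM libraries were 684 and 1349 CPM for endothelial and 264 and 538 CPM for pericyte markers. They were 61.6 and 78.2 CPM for fibroblast and 222 and 314 CPM for microglia markers. Of 12 endothelial markers edgeR called 0 and DESeq2 10 lower, 11 were lower at an unadjusted p under 0.05, and their summed level was 1338 to 2451 CPM at 5 mM and 476 to 1091 CPM at 25 mM. Of 10 pericyte and vascular smooth muscle markers edgeR called 0 and DESeq2 9 lower, 9 were lower at an unadjusted p under 0.05, and the sum was 423 to 558 CPM against 251 to 429 CPM, which overlapped. The medians of these lists were -1.66 and -1.63, at -2.72 and -2.39 in batch 1 and -0.63 and -1.07 in batch 2. Of 12 markers of fibroblasts and ocular coats 10 were tested, with 8 log2 fold changes below 0 and 2 above. EdgeR called 1 lower, Col3a1, DESeq2 called 5 lower, and 5 were lower at an unadjusted p under 0.05. The sum of this list was 112 to 130 CPM against 27.5 to 64.1 CPM, and Dpt was at 0.054 CPM or less. Microglia markers summed to 303 to 443 CPM against 127 to 254 CPM, with 0 of 10 called by edgeR, 5 called lower by DESeq2 and 7 lower at an unadjusted p under 0.05. Of all genes, 0.513% were called lower by edgeR and 9.11% by DESeq2, and 15.5% were lower at an unadjusted p under 0.05. The part of these cells in the lower matrix levels was not tested.

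Mueller glia markers summed to 2003 to 2131 CPM at 5 mM and 1676 to 2128 CPM at 25 mM, and astrocyte markers to 332 to 553 CPM against 356 to 373 CPM, and both overlapped. EdgeR called 0 of these 15 markers and DESeq2 1 astrocyte marker lower, and at an unadjusted p under 0.05 there were 2 lower and 2 higher Mueller glia markers and 3 lower astrocyte markers. Of 10 rod photoreceptor markers 6 were called higher, and their sum was 2925 to 5548 CPM against 6383 to 8854 CPM. Amacrine and ganglion cell markers summed to 430 to 535 CPM against 291 to 407 CPM, with 0 of 10 called by edgeR, 3 called lower by DESeq2 and 3 lower at an unadjusted p under 0.05. Retinal pigment epithelium markers were rare and their sum lay lower at 25 mM without overlap, at 6.65 to 9.40 CPM against 4.87 to 6.08 CPM. By single library the sums of this list and of the amacrine and ganglion cell markers overlapped. EdgeR called 0 of the 7 tested, with 1 lower and 1 higher at an unadjusted p under 0.05, and DESeq2 called 1 lower and 1 higher. Lens markers summed to 3.62 CPM or less in every replicate, with Lim2 at 0 in all 6 and Rpe65 at 0.090 CPM or less. Beside the marker counts of this paragraph, edgeR called 0.513% of all genes lower and 1.47% higher, and DESeq2 9.11% and 5.5%. At an unadjusted p under 0.05 the shares were 15.5% and 13.2%.

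**Figure D5:**
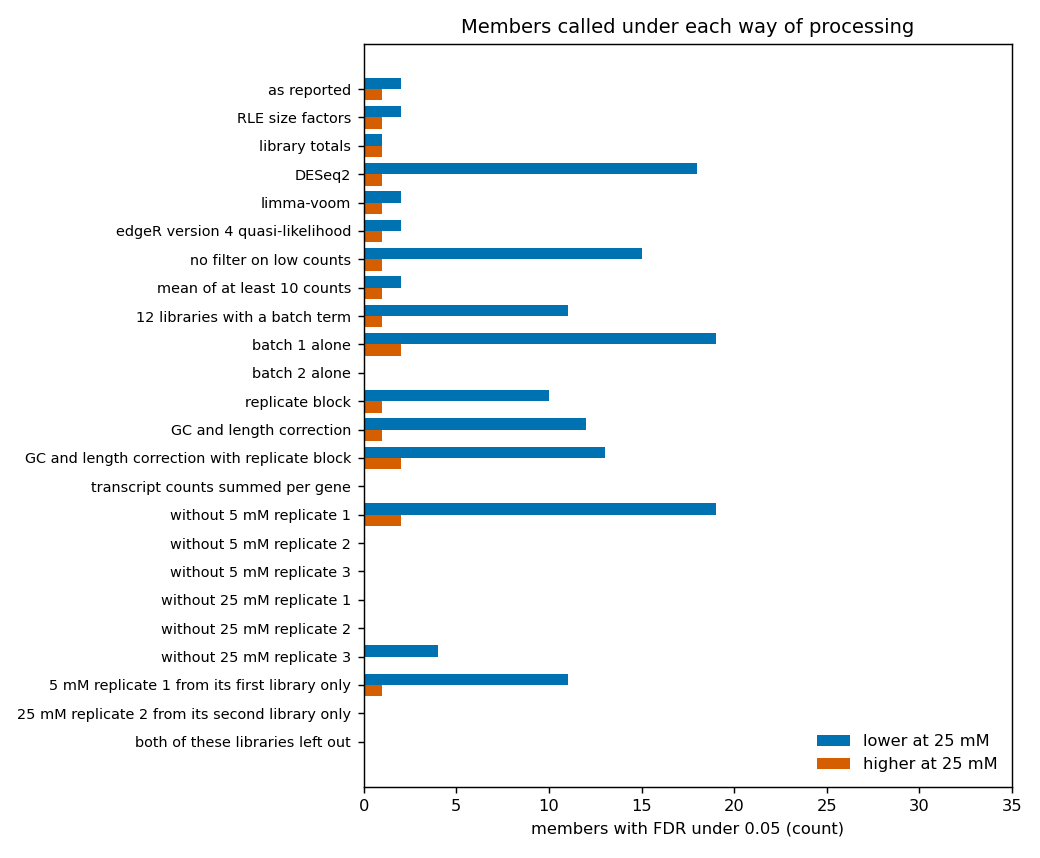
Number of members with an FDR under 0.05, lower (blue) or higher (orange) at 25 mM glucose, under each way of processing the same counts, with the reported one at the top. The count of lower members runs from 0 to 19 and that of higher members from 0 to 2.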

How the data were processed

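RNA-seq of retinal explants at 5 mM and 25 mM glucose was analysed, 3 biological replicates with 2 technical replicates each. The authors deposited estimated counts (expected counts) per gene and per transcript, not normalized between libraries; 100% of nonzero gene values were not whole. Libraries came from a stranded total RNA kit; the counting tool and annotation are not given in the sources used here, and the submitters' processing notes name GRCm38. 0 columns were left unused.

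The gene values were close to transcript abundance scaled by a mean length, not to plain sums. Rebuilt in this way from the transcripts, 30 of 35 members lay within 10% in all replicates. Bcan, Hspg2, Lamb1, Lamb3 and Lamc3 did not; the gene value of Lamb1 was 1.71 to 3.68 times the rebuilt one and that of Hspg2 0.754 to 2.56 times. GENCODE M21 gave symbols to 90.8% of gene identifiers, positions, and count-weighted transcript lengths. The sources used here do not say if counting was strand-specific, and Lama2, Lama3, Lamc3, Nid1, Nid2, Fn1, Fbn1, Fbn2, Eln, Tnc, Tnr and Thbs1 share exon positions with a gene on the opposite strand, whose reads may not be separated.

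Technical replicates were summed and rounded. The test had been planned for counts and was applied to these rounded values. Filtering with filterByExpr, TMM factors and the quasi-likelihood test of edgeR 4.0.16 (as in version 3; R 4.3.3) compared the groups without a replicate block, adjusted by Benjamini-Hochberg over 21061 genes, called at an FDR under 0.05 or under 0.01 with a fold change over 2. Exact permutation tests (scipy 1.17.1) were two-sided. All members are named by role; of the receptor, partner and TGF-beta lists, called genes or else the 3 most abundant per kilobase are named, except 1 gene that is not reported here. Marker lists are given by counts and sums; Col3a1, Dpt, Lim2 and Rpe65 were chosen from them after their values were seen. Lists covered receptors, partners, the TGF-beta pathway, and markers of endothelial cells, pericytes and smooth muscle, fibroblasts, Mueller glia, astrocytes, pigment epithelium, lens, microglia, rods, and amacrine and ganglion cells. Members and lists were chosen with earlier results of these data known. No pairing of replicate numbers across concentrations is stated. Correlations of same-numbered deviations were -0.01, -0.45 and 0.28. With 3 replicates per group these cannot decide whether the samples were paired. The procedure was tested on simulated data. Alternatives used DESeq2 1.42.0 and limma 3.58.1 among others; library totals limit counting error only, since reads without molecular identifiers are not independent molecules. Python 3.11.15, pandas 2.3.3 and matplotlib 3.10.9 made tables and plots.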

Additional observations from a re-analysis of the deposited data

Results flagged for a closer look

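Among 68 groups of 6 libraries (34 members at 2 concentrations), 8 held a library that lay far from the other 5 by Dixon's test. Chance flags about 1 in 20 groups, here 3.4. Of the 8, 5 were the first library of replicate 2 at 5 mM glucose. In that library Fbn2 was at 9.73 CPM, where the other 5 lay between 3.45 and 5.67. Fbln1 was at 21.01 CPM there, the others between 4.71 and 9.71. Fbln2 was at 11.5 CPM, the others between 3.94 and 6.66. Fmod was at 8.13 CPM, the others between 2.88 and 4.11, and Thbs2 at 5.22 CPM, the others between 1.95 and 2.94. In the first library of replicate 3 at 5 mM, Lama2 was at 13.2 CPM, with the others between 1.76 and 5.18. In the second library of replicate 3 at 25 mM, Fbln1 was at 5.90 CPM, with the others between 0.00 and 1.45, and Fmod at 5.19 CPM, with the others between 1.36 and 2.26. The cause of these values was not tested.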

How the results depend on the processing

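The median log2 fold change of the members stayed below 0 under all 23 alternatives, between -1.53 (batch 1 alone) and -0.47 (batch 2 alone), and 24 members stayed below 0 throughout. The number called did not. Against 2 lower and 1 higher as reported, the count of lower members was 1 with library totals, 18 with DESeq2, 15 without a filter on low counts, 11 with the 12 libraries and a batch term (technical replicates then count as samples), 12 with a GC and length correction, and 13 lower and 2 higher with that correction and a replicate block. Batch 1 alone gave 19 lower and 2 higher, and batch 2 alone and transcript counts summed per gene gave 0 and 0. Leaving out each replicate gave 0 to 19 lower and 0 to 2 higher. A replicate block gave 10 lower and 1 higher, but no pairing of same-numbered samples is stated. Added after seeing the data, replicate 1 at 5 mM from its first library only gave 11 lower, and replicate 2 at 25 mM from its second library only, or both left out, gave 0 lower and 0 higher. All genes called lower were 0.356% with library totals, 9.11% with DESeq2, 3.47% without the filter and 7.86% with the 12 libraries. They were 6.65% with the GC and length correction, 8.99% with the block added and 2.78% with the replicate block alone. Batch 1 alone gave 10.1%, batch 2 alone 0.0% and transcript sums 0.318%. Replicate 1 at 5 mM from its first library only gave 4.0%. Both settings without the first library of replicate 2 at 25 mM gave 0.0%. The number of all genes called lower also moved between settings, from 0 to 3279. The cause was not tested.

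Of 781 fold changes recomputed for single members, 29 changed sign, none of them a called value. Postn did so with library totals (0.056), limma-voom (0.20), the 12 libraries (0.043), batch 1 (0.36) and the replicate block (0.22). Lamc3 did so with limma-voom (-0.18), batch 1 (-0.53), the replicate block (-0.10) and transcript sums (-0.63). Agrn did so in batch 1 (0.255), with GC and length correction (0.39) and with the block added (0.39), Tnr in batch 1 (0.19), Lama3 in batch 2 (-0.11) and with transcript sums (-0.12), Eln in batch 2 (-0.33), and Thbs1 in batch 2 (0.76), with the second library only (0.17) and with both left out (0.087). With each replicate left out in turn, Lama1 ran from -0.0077 to 0.49, Lama3 from -0.083 to 0.13, Lamc3 from -0.97 to 0.51, Agrn from -0.26 to 0.024, Thbs1 from -0.56 to 0.29 and Postn from -0.42 to 0.81. Of 126 recomputed differences in laminin and lectican shares, 15 moved by over 1 SD. The coding share lay entirely lower in 4 members as reported, in 2 with a minimum of 500 transcript counts, and in 4 and 1 in batches 1 and 2.

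Low counts limit Acan, Bcan, Lamc3 and Lamb3, and 3 replicates limit every exact test to p = 0.1.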
